A study of Mus musculus with 8 samples.

Results

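Chemokines are small secreted proteins that steer migrating cells, and their receptors sit on the cell surface. Of 22180 mouse genes with a single-gene probe set on the array, 54 were chemokine ligands or receptors, 33 ligands and 21 receptors. They were chosen by symbol alone: the Ccl, Cxcl, Xcl1 and Cx3cl1 ligands, and the Ccr, Cxcr, Cx3cr1, Xcr1 and Ackr receptors. Each of the 54 was represented by 1 probe set, and Ccl19, which matched by symbol, was not analysed here because its probe sets also name other genes.

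The samples are 8 clonal lines grown from liver tumours of C57BL/6 mice, with 1 array per line. Both tumour types were driven by c-Myc together with NrasG12V from the pCaMIN vector, so lines of both types share the oncogenes. The 4 intrahepatic cholangiocarcinoma lines (ICC, a cancer with bile duct features) came from tumours made by focal in vivo electroporation, and the 4 hepatocellular carcinoma lines (HCC, a cancer with hepatocyte features) from tumours made by hydrodynamic tail-vein injection. Tumour type and delivery therefore cannot be told apart. All lines grew untreated in DMEM with fetal calf serum. ICC9, ICC10, HCC2.1 and HCC2.4 are labelled female, and ICC2.7, ICC2.9, HCC1 and HCC4 male. Nothing in the labels tells which lines share a tumour or an animal, so each p-value measures the spread between these lines, part of which may be technical. The sources used here give neither the age of the mice nor the passage of the lines.

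Ligands act through G protein-coupled receptors that call in particular leukocytes, such as neutrophils through Cxcr2, monocytes through Ccr2 and T cells through Cxcr3. Atypical receptors bind ligands without G protein signalling and remove them. In the liver, hepatocytes, bile duct cells and tumour cells can make chemokines themselves, and NF-kB and interferon signalling are well-known switches of these genes.

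The 8 arrays had medians of 5.02 to 5.09 log2 units over all probe sets. The genes of olfactory, vomeronasal and trace amine receptors, 1405 in number, are not known to work in liver, and their 95th percentile in each line (4.99 to 5.10) served as a reference for low signal. It is a description and not a detection call. The female-labelled lines had Xist at 11.26 to 11.59 and the male-labelled lines at 4.02 to 4.64, as their labels say. The 8 columns of the deposited table span only 7 directions, meaning that a weighted sum of the 8 values was close to 0 for every probe set (at most 0.009), with the largest weights on ICC9 (0.782) and ICC10 (-0.538). ICC9 is therefore almost fixed by the other lines. Of the marker genes checked, the bile duct genes Krt7, Krt19 and Sox9 lay above the reference in every line of both types. Epcam lay above it in HCC1 alone (5.12) and Cftr in none. The hepatocyte genes Apoa1, Hnf4a and Afp lay above the reference in every line, and Ttr and Cps1 in 4 lines each. Alb, the main hepatocyte product, did so in none (4.12 to 4.64). The general leukocyte marker Ptprc (3.40 to 3.99), the T cell marker Cd3e and the macrophage markers Itgam and Adgre1 lay above it in no line. Of 8 leukocyte markers measured, Cd68 and Csf1r lay above it in all 8 lines, Tyrobp in HCC4 (5.12) and ICC2.9 (5.02) and Lyz2 in HCC4 (5.38), and the mean of the 8 was 4.70 to 5.16 in ICC and 4.95 to 5.31 in HCC lines.

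Of the 54 chemokine genes 27 (50.0%) lay above the sensory receptor reference in at least 1 line, against 66.4% of all genes. In all 8 lines 18 (33.3%) lay above it, against 54.4% of all genes. Among ligands 11 of 33 were above it in all lines, 6 in some and 16 in none. Among receptors 7 of 21 were above it in all lines, 3 in some and 11 in none. The 27 genes above it in no line measured 2.26 to 5.08 and each spanned 0.23 to 0.95 log2 units over the lines. By line, 17 ligands lay above the reference in HCC1, 15 in ICC10, 14 in HCC4 and 13 in each of the other 5 lines. Receptors above it numbered 7 to 9 in every line.

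Over the 8 lines the 54 genes had a median span of 0.62 log2 units, against 0.57 over all genes. Values spanned at least 1 log2 unit in 13 of the 54 (24.1%, against 16.2% of all genes), which were 9 ligands and 4 receptors. HCC1 was the highest line for 5 of these 13, and ICC10, ICC2.7, HCC4 and HCC2.1 for 2 each. Cx3cl1, where ICC10 and HCC1 tied at 8.47, is counted for ICC10 in these numbers. How often each line was highest over all genes is not given here, so these counts do not set the chemokine genes apart. In bulk RNA of a culture, fewer expressing cells and less RNA per cell cannot be told apart.

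The study set ICC against HCC lines. With limma's test and Benjamini-Hochberg adjustment over all genes (adjusted p under 0.05), 0 of the 54 chemokine genes differed between the types, while 58 of 22180 genes did (0.261%). At an unadjusted p under 0.05 there were 7 chemokine genes (13.0%), against 14.1% of all genes. The differences ran from -0.58 (Cx3cl1) to 0.85 (Cxcl12) on the log2 scale, ICC minus HCC, so none reached 1. They were positive in 24 genes and negative in 30, with a median of -0.018, against 0.002 over all genes. The median was -0.035 among ligands and -0.007 among receptors. Of the 27 genes above the sensory receptor reference in at least 1 line 9 were positive and 18 negative, and of the 14 whose mean lay above the median level of all genes 2 were positive and 12 negative (median -0.306), with 0 called in either set. In 4 genes the types did not overlap (7.41%, against 8.63% of all genes). Cxcl2 and Cxcl11 were higher in all ICC lines and Ccl6 and Ccr9 lower, and these 4 lay above the sensory receptor reference in no line. The 7 genes with an unadjusted p under 0.05 were Cxcl2, Ccl6, Cxcl11, Ackr1, Ccl17, Ccl12 and Cxcl3, with adjusted p from 0.198 to 0.33. None of these 7 lay above the reference in any line either.

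**Figure D1:**
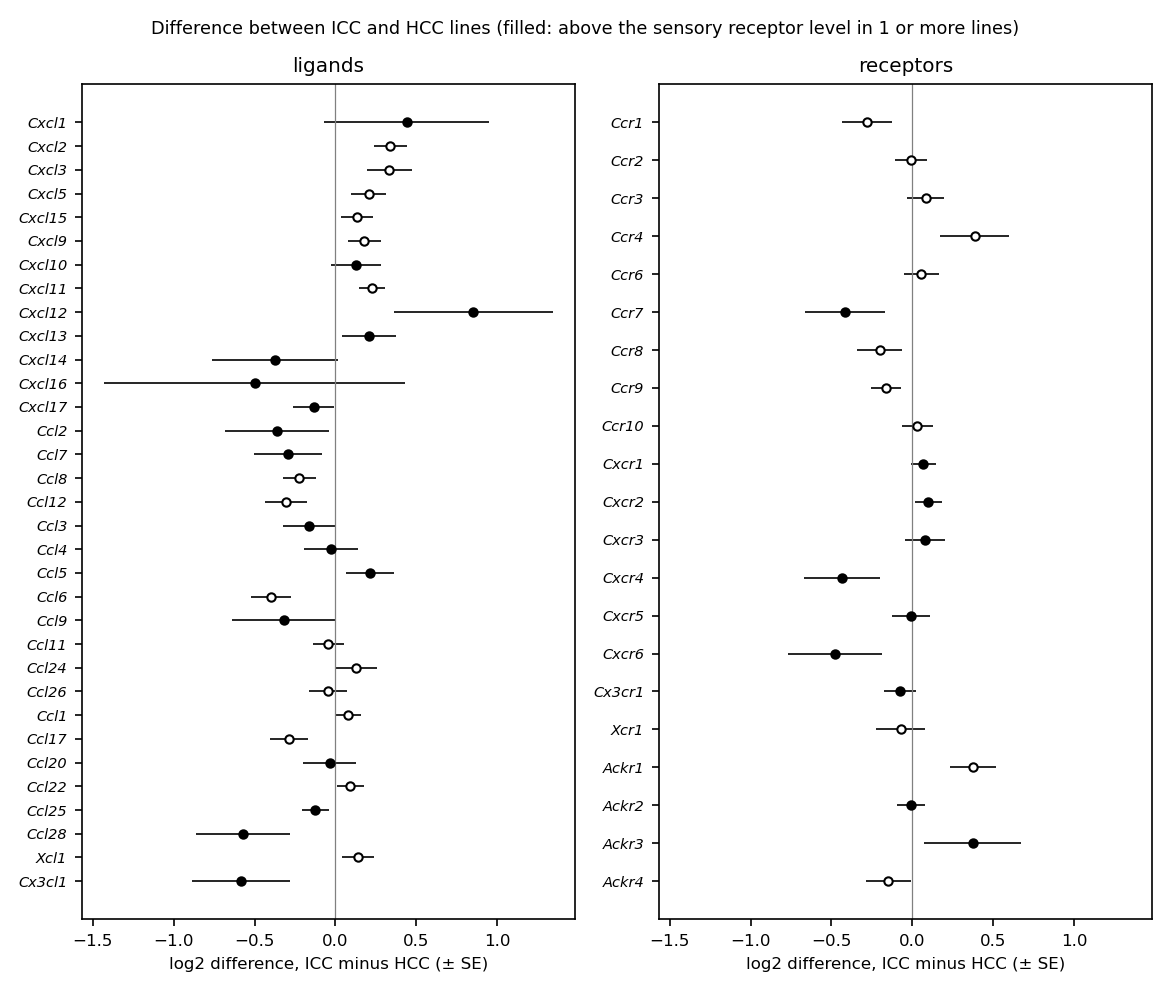
Log2 difference between ICC and HCC lines (x axis, ICC minus HCC, bars are limma's standard errors, n = 4 lines per type) for 33 ligands and 21 receptors (y axis). Filled points mark the 27 genes above the sensory receptor reference in at least 1 line; differences run from -0.58 for Cx3cl1 to 0.85 for Cxcl12, and Cxcl16 has the longest bar (SE 0.93).

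The neutrophil ligands of Cxcr2 are Cxcl1, Cxcl2, Cxcl3, Cxcl5 and Cxcl15. In RefSeq's gene order Cxcl3, Cxcl15, Cxcl1 and Cxcl2 follow each other directly among protein-coding genes, and only Cxcl1 among the 5 lay above the sensory receptor reference in any line. Promoter sequences are shown for 3 of these neighbours, which carry the same match to the NF-kB consensus, and for Cxcl12 as an example without a match. These genes were chosen after their values had been seen. The 250 bases before the RefSeq start are printed from GRCm38.p6, plus strand, with matches on either strand in capitals. They lie at chr5:90890995-90891244 (Cxcl1), chr5:90903649-90903898 (Cxcl2), chr5:90785851-90786100 (Cxcl3) and chr6:117168285-117168534 (Cxcl12).
Cxcl1: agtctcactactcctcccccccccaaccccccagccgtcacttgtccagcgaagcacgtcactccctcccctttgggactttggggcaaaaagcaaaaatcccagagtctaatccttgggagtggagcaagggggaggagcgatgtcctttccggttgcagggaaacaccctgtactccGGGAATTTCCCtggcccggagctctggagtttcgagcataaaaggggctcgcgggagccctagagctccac
Cxcl2: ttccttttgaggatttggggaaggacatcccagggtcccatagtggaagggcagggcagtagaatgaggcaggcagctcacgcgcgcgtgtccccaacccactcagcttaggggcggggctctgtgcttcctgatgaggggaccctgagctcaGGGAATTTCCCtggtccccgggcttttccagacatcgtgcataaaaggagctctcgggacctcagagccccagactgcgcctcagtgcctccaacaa
Cxcl3: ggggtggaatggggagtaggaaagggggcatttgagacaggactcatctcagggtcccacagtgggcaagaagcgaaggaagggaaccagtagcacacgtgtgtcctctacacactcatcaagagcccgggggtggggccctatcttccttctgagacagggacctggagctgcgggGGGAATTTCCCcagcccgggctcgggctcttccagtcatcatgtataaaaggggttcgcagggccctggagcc
Cxcl12: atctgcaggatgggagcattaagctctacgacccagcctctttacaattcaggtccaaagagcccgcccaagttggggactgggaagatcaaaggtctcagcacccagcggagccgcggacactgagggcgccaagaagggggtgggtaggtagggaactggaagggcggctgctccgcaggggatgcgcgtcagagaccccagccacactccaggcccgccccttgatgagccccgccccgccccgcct
In Cxcl1, Cxcl2 and Cxcl3 the stretch GGGAATTTCCC holds 2 overlapping matches. It starts 71, 97 and 73 bases before the start of the respective gene. The consensus was found in 7.25% of 32851 RefSeq promoters of the same length and in 11 of the 40 chemokine genes with a promoter in the table, 7 of 22 ligands and 4 of 18 receptors. A match describes letters and is not a bound site. The part of these matches in the values was not tested.

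Cxcl1, which draws neutrophils through Cxcr2, measured 7.14 in ICC9, 8.06 in ICC10, 5.66 in ICC2.7 and 5.72 in ICC2.9. In HCC lines it measured 6.54 in HCC1, 6.49 in HCC4, 6.08 in HCC2.1 and 5.71 in HCC2.4. ICC9 and ICC10 were higher than all other lines, and ICC2.7 and ICC2.9 lay beside HCC2.4, so the types overlapped. The difference was 0.44 (SE 0.51, 95% interval -0.72 to 1.60, limma adjusted p = 0.744), and it was -0.03 without ICC10.

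Cxcl2, likewise a neutrophil attractant, measured 4.99, 5.04, 4.82 and 4.83 in ICC9, ICC10, ICC2.7 and ICC2.9. HCC1, HCC4, HCC2.1 and HCC2.4 had 4.43, 4.73, 4.48 and 4.68. All ICC lines exceeded all HCC lines, yet every value lay under the sensory receptor reference. Cxcl2 had the smallest adjusted p of the 54 genes (log2 difference 0.34, SE 0.10, 95% interval 0.11 to 0.57, limma adjusted p = 0.198). Cxcl5, another Cxcr2 ligand, measured 4.24 to 4.65 in ICC and 4.20 to 4.41 in HCC lines (difference 0.20, adjusted p = 0.438). Cxcl3 measured 3.02 to 3.69 over the 8 lines and Cxcl15 measured 3.86 to 4.24. All 5 differences in this group were positive (0.14 to 0.44), and limma called 0 of the 5, with 2 at an unadjusted p under 0.05. Ppbp, a Cxcr2 ligand outside the symbol rule, ran the other way (difference -0.38, SE 0.25, limma adjusted p = 0.536). It measured 4.29 to 5.26 in ICC and 4.72 to 5.61 in HCC lines, above the reference in HCC1, ICC10 and HCC2.1.

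**Figure D2:**
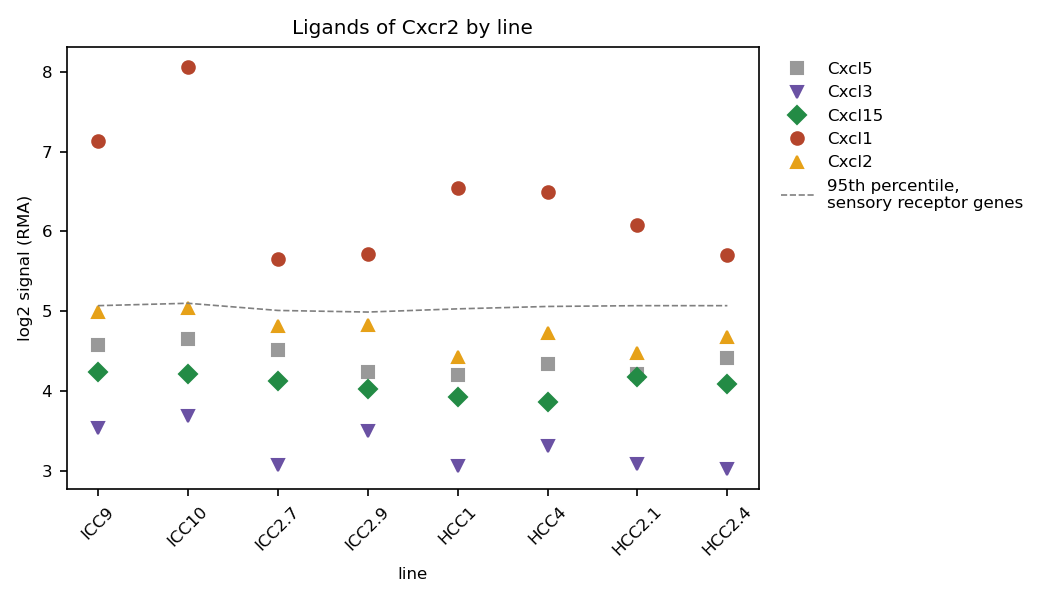
Log2 signal (y axis) of the 5 Cxcr2 ligands among the 54 genes in each of the 8 lines (x axis), 1 point per gene and line. The dashed line is the 95th percentile of sensory receptor genes. Cxcl1 runs from 5.66 to 8.06 above the dashed line, and the other 4 ligands stay below it in every line.

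The Cxcr3 ligands Cxcl9, Cxcl10 and Cxcl11 are interferon-driven and draw T cells and natural killer cells. Cxcl9 measured 3.74 to 3.85 in ICC and 3.40 to 3.80 in HCC lines, under the reference throughout (difference 0.18, SE 0.10, limma adjusted p = 0.456). Cxcl10 measured 4.89 in ICC9, 5.04 in ICC10, 4.73 in ICC2.7, 4.78 in ICC2.9, 5.11 in HCC1, 4.34 in HCC4, 4.73 in HCC2.1 and 4.75 in HCC2.4. HCC1 alone passed the reference for Cxcl10, and the types overlapped (difference 0.13, SE 0.16, adjusted p = 0.760). Cxcl11 lay between 4.66 and 4.85 in ICC and between 4.47 and 4.62 in HCC lines, which did not overlap (difference 0.23, SE 0.08, adjusted p = 0.252). Limma called 0 of the 3, with 1 at an unadjusted p under 0.05.

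Among the remaining CXC ligands, 5 genes and all above the reference in at least 1 line, Cxcl16 and Cxcl12 varied most. Cxcl16, a membrane-anchored ligand of Cxcr6 that can be shed, measured 8.89 in ICC9, 9.13 in ICC10, 6.06 in ICC2.7 and 5.94 in ICC2.9. It measured 6.92 in HCC1, 6.63 in HCC4, 9.24 in HCC2.1 and 9.23 in HCC2.4. Each type thus held a high and a low pair of lines, and the high pairs are the female-labelled ones. Between types the difference was -0.50 (SE 0.93, 95% interval -2.61 to 1.61, limma adjusted p = 0.853), and it was 0.02 without ICC2.9.

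Cxcl12, the ligand of Cxcr4 and Ackr3 and a product of stromal cells in many tissues, measured 5.43 in ICC9, 4.73 in ICC10, 7.10 in ICC2.7 and 6.98 in ICC2.9. The HCC lines had 5.10 in HCC1, 5.47 in HCC4, 5.10 in HCC2.1 and 5.16 in HCC2.4. Only ICC2.7 and ICC2.9 were high, and ICC10 lay below all HCC lines. The difference of 0.85 was the largest of the 54 and did not pass (SE 0.49, 95% interval -0.26 to 1.97, limma adjusted p = 0.474). It was 0.51 without ICC2.7, 0.55 without ICC2.9 and 1.30 without ICC10. Pdgfrb, a receptor of pericytes and fibroblasts, was also highest in ICC2.7 and ICC2.9 (10.55 and 9.89), with 6.66 to 8.41 in the other lines, and so was Acta2 (7.16 and 6.88, against 6.09 to 6.46). Des ran the other way, at 5.17 and 4.97 in ICC2.7 and ICC2.9 and 5.37 to 6.86 in HCC lines, and Pdgfra lay at 5.32 to 5.64 in all lines. Of 7 fibroblast and stellate cell markers 3 lay above the reference in all lines, Lrat, Dcn and Lum in none, and the mean of the 7 was 5.14 to 5.66 in ICC and 5.05 to 5.51 in HCC lines. Their part in the Cxcl12 values was not tested.

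Cxcl14, a homeostatic ligand of epithelia, measured 5.56, 6.06, 5.92 and 5.86 in ICC9, ICC10, ICC2.7 and ICC2.9, and 7.58, 5.89, 5.82 and 5.60 in HCC1, HCC4, HCC2.1 and HCC2.4. HCC1 stood alone, and the difference of -0.37 (SE 0.39, limma adjusted p = 0.714) became 0.08 without it. Cxcl13, which organises B cell follicles, measured 5.10 to 5.93 and Cxcl17, a mucosal ligand, 5.39 to 5.87, both above the reference in all 8 lines. Limma called 0 of the 5 genes, and 0 had an unadjusted p under 0.05.

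The monocyte ligands of Ccr2 are Ccl2, Ccl7, Ccl8 and Ccl12, which lie in a run with Ccl11 and Ccl1 in RefSeq's gene order. Ccl2, the principal monocyte attractant, measured 6.77 in ICC9, 7.02 in ICC10, 5.72 in ICC2.7, 5.82 in ICC2.9, 6.67 in HCC1, 6.16 in HCC4, 7.08 in HCC2.1 and 6.86 in HCC2.4. The types overlapped (difference -0.36, SE 0.32, 95% interval -1.09 to 0.37, limma adjusted p = 0.663), and the 2 lowest lines were ICC2.7 and ICC2.9. Without 1 line the Ccl2 difference ran from -0.16 (without ICC2.7) to -0.59 (without ICC10). Ccl7, which acts on Ccr2 and other receptors, measured 6.52, 6.85, 6.16 and 6.19 in ICC9, ICC10, ICC2.7 and ICC2.9, and 7.23, 6.40, 6.68 and 6.58 in HCC1, HCC4, HCC2.1 and HCC2.4. HCC1 was highest for Ccl7 and the types overlapped (difference -0.29, SE 0.21, limma adjusted p = 0.573, and -0.12 without HCC1). Ccl8 (3.94 to 4.35) and Ccl12 (3.06 to 3.69) lay below the reference in all lines. The 4 differences were all negative (-0.36 to -0.22), and limma called 0 of them, with 1 at an unadjusted p under 0.05.

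Of the ligands of Ccr1 and their relatives, Ccl3, Ccl4, Ccl5, Ccl6 and Ccl9, which draw monocytes, T cells and other leukocytes, 4 of 5 lay above the reference in at least 1 line. Ccl9, a mouse myeloid attractant, measured 5.19, 5.49, 5.73 and 5.66 in ICC9, ICC10, ICC2.7 and ICC2.9, and 6.91, 5.55, 5.31 and 5.58 in HCC1, HCC4, HCC2.1 and HCC2.4. Again HCC1 stood above the rest, and the difference of -0.32 (SE 0.32, limma adjusted p = 0.700) turned to 0.04 without it. Ccl5, a T cell attractant, measured 4.95 to 5.29 in ICC and 4.54 to 5.20 in HCC lines, close to the reference (difference 0.22, SE 0.15, adjusted p = 0.553). Ccl6 lay at 3.52 to 4.06 in ICC and at 4.21 to 4.38 in HCC lines, below the reference and without overlap (difference -0.40, SE 0.12, adjusted p = 0.212). Ccl4 measured 5.33 to 6.03 and Ccl3 4.65 to 5.43, and HCC1 was the highest line for both. Limma called 0 of the 5, with 1 at an unadjusted p under 0.05.

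The 3 eosinophil ligands of Ccr3, Ccl11, Ccl24 and Ccl26, measured 4.24 to 4.92 and lay above the reference in no line. Ccl28, a mucosal ligand of Ccr3 and Ccr10, measured 6.09 in HCC1 and 6.15 in HCC4, while HCC2.1 and HCC2.4 had 4.87 and 5.07. The 4 ICC lines lay between 4.73 (ICC9) and 5.13 (ICC10) for Ccl28. It was thus high in the male-labelled HCC lines and near the reference elsewhere (difference -0.57, SE 0.29, 95% interval -1.23 to 0.09, limma adjusted p = 0.421, and -0.37 without HCC4). Ccl20, the ligand of Ccr6, measured 5.61, 5.69, 5.68 and 4.96 in ICC9, ICC10, ICC2.7 and ICC2.9 and 5.43 to 5.61 in HCC lines. ICC2.9 was low, and the difference of -0.03 (SE 0.16, adjusted p = 0.946) was 0.14 without it. Ccl25, a thymic and intestinal ligand of Ccr9, lay at 6.73 to 7.07 in all lines. Ccl1, Ccl17 and Ccl22 lay above the reference in none.

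Cx3cl1 (fractalkine), a membrane-anchored ligand of Cx3cr1, measured 7.95 in ICC9, 8.47 in ICC10, 7.38 in ICC2.7 and 6.87 in ICC2.9. The HCC lines had 8.47 in HCC1, 8.33 in HCC4, 8.20 in HCC2.1 and 8.01 in HCC2.4. ICC2.7 and ICC2.9 were the lowest lines, and ICC10 equalled the highest HCC line. The difference of -0.58 was the most negative of the 54 and did not pass (SE 0.30, 95% interval -1.28 to 0.10, limma adjusted p = 0.428), and it was -0.32 without ICC2.9. Its neighbours Ccl22 and Ccl17 spanned 0.28 and 0.71 over the lines. The proteases Adam10 (10.29 to 11.02) and Adam17 (9.01 to 9.53), which release Cx3cl1 and Cxcl16 from the membrane, were above the reference in all lines and were not called between types (limma adjusted p = 0.950 and 0.888).

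**Figure D3:**
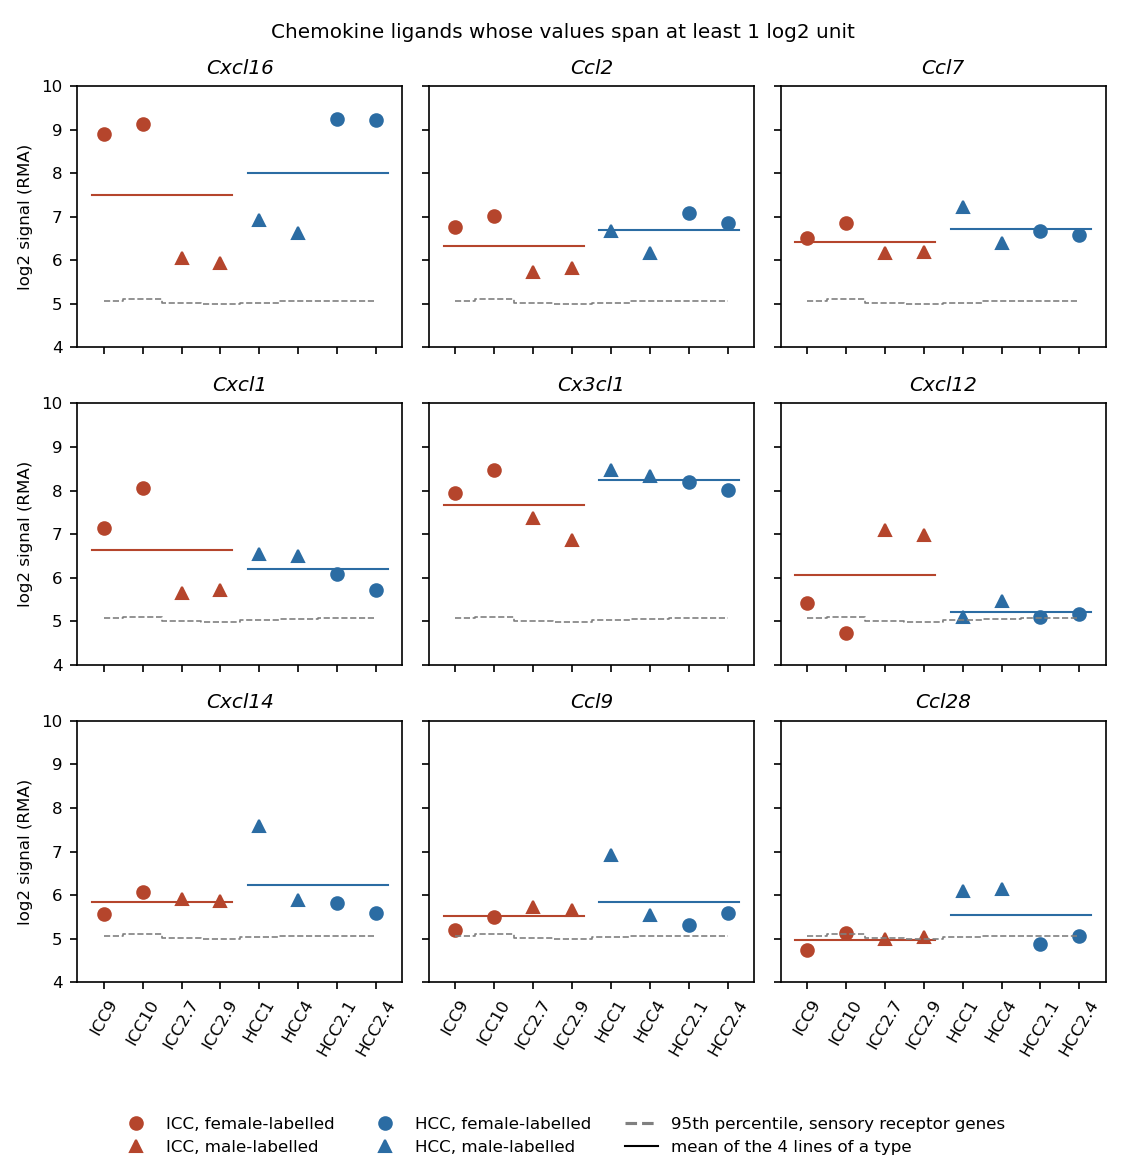
Log2 signal (y axis) of the 9 ligands whose values span at least 1 log2 unit, in each of the 8 lines (x axis). Points are single lines, horizontal lines the mean of the 4 lines of a type, and dashed lines the 95th percentile of sensory receptor genes; Cxcl16 separates the female-labelled lines (8.89 to 9.24) from the male-labelled ones (5.94 to 6.92), and HCC1 stands alone for Cxcl14 (7.58) and Ccl9 (6.91).

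The median span over lines was 0.56 log2 units among receptors, 0.70 among ligands and 0.57 over all genes. Cxcr4, the signalling receptor of Cxcl12, measured 6.15 in ICC9, 6.62 in ICC10, 5.75 in ICC2.7, 5.82 in ICC2.9, 6.92 in HCC1, 6.73 in HCC4, 6.13 in HCC2.1 and 6.30 in HCC2.4. The lowest lines for the receptor, ICC2.7 and ICC2.9, were the highest for its ligand Cxcl12. Between types the difference in Cxcr4 was -0.43 (SE 0.23, 95% interval -0.96 to 0.09, limma adjusted p = 0.441). Ackr3, the atypical receptor that clears Cxcl12, measured 6.09, 6.00, 6.99 and 6.58 in ICC9, ICC10, ICC2.7 and ICC2.9, and 6.00, 6.80, 5.79 and 5.58 in HCC1, HCC4, HCC2.1 and HCC2.4. The types overlapped for Ackr3 (difference 0.37, SE 0.30, limma adjusted p = 0.617), and it ran from 0.18 without ICC2.7 to 0.62 without HCC4.

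Ccr7, the homing receptor of dendritic and T cells, measured 5.75, 6.11, 5.50 and 6.05 in ICC9, ICC10, ICC2.7 and ICC2.9 and 6.96, 6.18, 5.76 and 6.18 in HCC1, HCC4, HCC2.1 and HCC2.4. HCC1 was highest, and the types overlapped (difference -0.42, SE 0.25, limma adjusted p = 0.485, and -0.19 without HCC1). Cxcr6, the receptor of Cxcl16, measured 5.08 in HCC4 and 3.44 to 3.82 in the other 7 lines, so it passed the reference (5.06 in that line) in HCC4 alone, and the difference was -0.48 (SE 0.29, adjusted p = 0.499), or -0.145 without HCC4. The leukocyte markers Lyz2 (5.38, against 3.86 to 4.89 elsewhere) and Tyrobp (5.12, against 4.59 to 5.02) were also highest in HCC4. So was Cd3e (4.83, under the reference), while Ptprc measured 3.58 there, under the reference. Ptprc and Itgam were highest in ICC10 (3.99 and 4.51), Adgre1 in HCC2.1 (4.11) and Csf1r and Cd68 in HCC1 (5.57 and 10.21). The part of these markers in the Cxcr6 value was not tested.

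The leukocyte receptors paired with the ligands above were low or flat. Cxcr2 measured 4.99 to 5.06 in ICC and 4.80 to 5.04 in HCC lines (difference 0.10, SE 0.09, limma adjusted p = 0.643). Cxcr3 measured 5.45 to 5.78 in ICC and 5.29 to 5.77 in HCC lines, above the reference in all 8 (difference 0.08, SE 0.12, adjusted p = 0.823). Ccr1 measured 3.19 to 3.92 in ICC and 3.69 to 4.06 in HCC lines, and Ccr2 3.60 to 3.88 and 3.60 to 3.93, below the reference in every line, with differences of -0.28 (adjusted p = 0.454) and -0.01 (adjusted p = 0.983). The Cx3cl1 receptor Cx3cr1 (6.14 to 6.51), the scavenging receptor Ackr2 (5.96 to 6.26) and Cxcr1 (5.18 to 5.35) lay above the reference in all lines, with spans of 0.37, 0.30 and 0.17. Of 9 CC receptors Ccr7 was the only one above the reference in any line. Limma called 0 of the 21 receptors, and 1, Ackr1, had an unadjusted p under 0.05 (difference 0.38, adjusted p = 0.287).

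**Figure D4:**
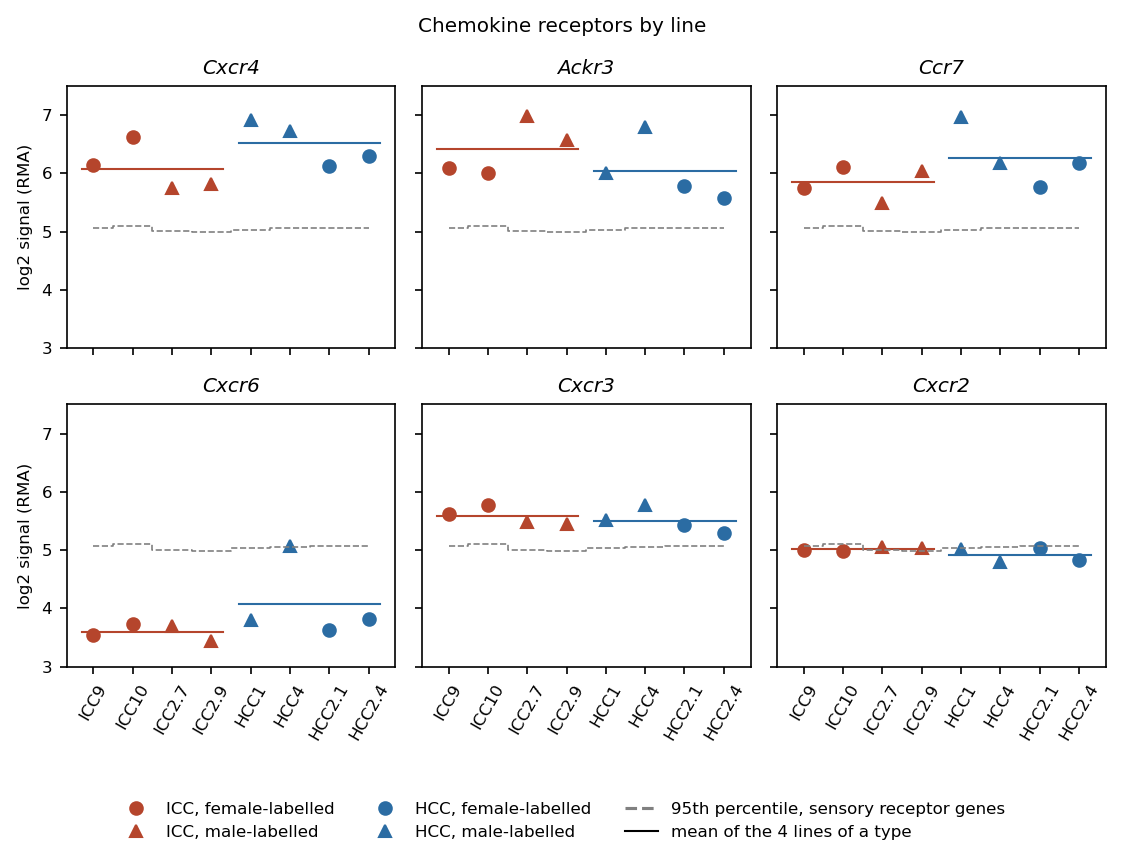
Log2 signal (y axis) of 6 receptors in each of the 8 lines (x axis), with points for single lines, horizontal lines for the mean of the 4 lines of a type and dashed lines for the 95th percentile of sensory receptor genes. Cxcr4 is lowest in ICC2.7 and ICC2.9 (5.75 and 5.82), Ackr3 is highest in ICC2.7 (6.99), and Cxcr6 rises to the dashed line in HCC4 alone (5.08).

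Because Cxcl16 split both types along the labelled sex, female- and male-labelled lines were compared with tumour type in the model, a comparison chosen after the values had been seen. Limma called 2 of the 54 genes (3.70%, against 2.94% of all genes), both higher in female-labelled lines (1.48% of all genes were called in that direction). Cxcl16 was 9.12 ± 0.16 in female-labelled and 6.39 ± 0.47 in male-labelled lines (SD, n = 4 each), a 6.66-fold difference (log2 2.73, SE 0.14, 95% interval 2.42 to 3.05, adjusted p = 0.000108). It was called in all 17 alternatives (2.63 to 2.85). Ccl2 was 6.93 ± 0.14 and 6.09 ± 0.43, a 1.79-fold difference (log2 0.84, SE 0.16, 95% interval 0.47 to 1.22, adjusted p = 0.0371), and was called in 8 of 17 alternatives. The Ccl2 call was lost without any single line other than HCC1, with the 2 lines of each type and sex as a random block (adjusted p = 0.0711) and with the missing direction in the model (0.0848), over a range of 0.00894 to 0.143.

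For Cxcl16 and Ccl2 every female-labelled line lay above every male-labelled one, which held for 4.41% of all genes. In no other chemokine gene were the sexes without overlap, so 2 of 54 stand against 8.76% of all genes in either direction. The bile duct keratin Krt19 split the same way, at 8.97 in ICC9, 9.26 in ICC10, 8.19 in HCC2.1 and 7.76 in HCC2.4, against 5.60 to 6.89 in male-labelled lines (log2 difference 2.19, limma adjusted p = 0.00483). The mean of 5 bile duct markers was 6.77 to 7.08 in female-labelled and 6.11 to 6.44 in male-labelled lines, but Krt19 was the only 1 of the 5 called, and the others differed by -0.04 (Krt7) to 0.29 (Epcam). Of 11 interferon signalling genes 1, the interferon-gamma receptor chain Ifngr1, was called higher in female-labelled lines (1.25, adjusted p = 0.0138), and the mean of the 11 overlapped (7.99 to 8.39 in female-labelled and 7.86 to 8.19 in male-labelled lines). The fibroblast marker Acta2 was called lower (-0.52, adjusted p = 0.046). The mean of 19 NF-kB pathway genes was 8.07 to 8.11 in female-labelled and 7.82 to 7.96 in male-labelled lines, with 0 of the 19 called. The part of these genes in the Cxcl16 and Ccl2 values was not tested. Female-labelled lines are 2 ICC and 2 HCC lines, so the labelled sex cannot be told apart from anything else that the 2 female pairs share.

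No lower value in female-labelled lines passed with type alone in the model. Ackr3 differed by -0.73 (SE 0.18, limma adjusted p = 0.0758, and 0.0221 without HCC1), Cxcl12 by -1.06 (SE 0.36, adjusted p = 0.177) and Ccl28 by -0.62 (SE 0.21, adjusted p = 0.188). With the interaction also in the model Cxcl12 and Ccl28 were called (limma adjusted p = 0.0134 and 0.0195). That fit called 4 of the 54 chemokine genes and 1264 of all 22180 genes, against 653 of all genes without the interaction.

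**Figure D5:**
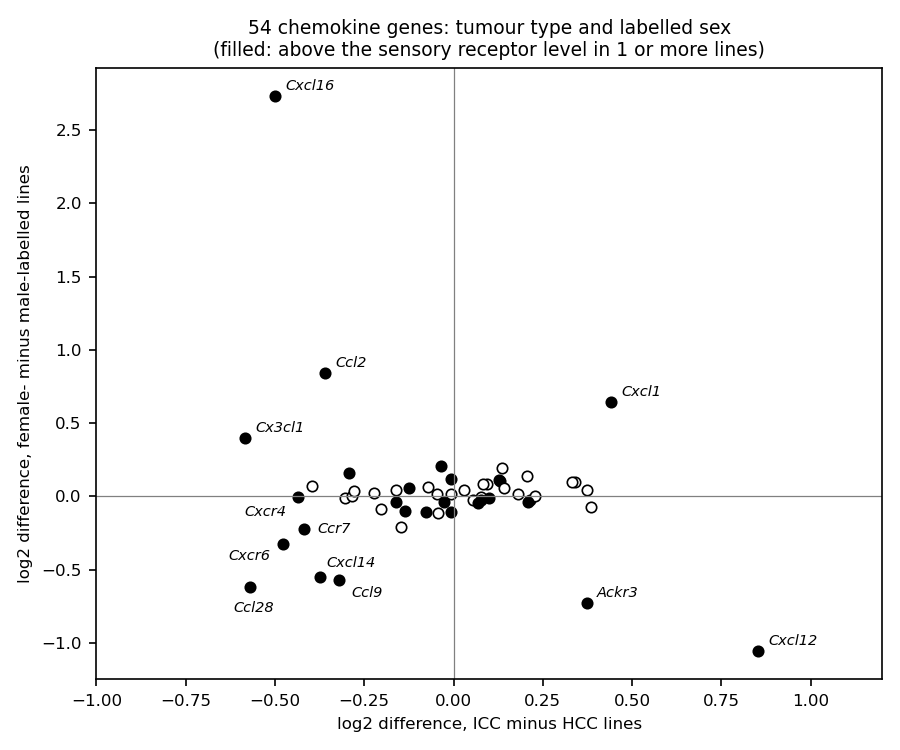
Log2 difference between female- and male-labelled lines (y axis) against the difference between ICC and HCC lines (x axis) for the 54 chemokine genes, 1 point per gene, with 4 lines on each side of both differences. Filled points lie above the sensory receptor reference in at least 1 line; Cxcl16 stands apart at 2.73 on the y axis and -0.50 on the x axis.

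The last comparison asked whether the difference between types itself differed between female- and male-labelled lines. Limma called 0 of the 54 genes for this interaction and 0 of all 22180 (0.0%). At an unadjusted p under 0.05 were 8 chemokine genes (14.8%), against 20.1% of all genes. Cxcl1 averaged 7.60 in ICC9 and ICC10, 5.69 in ICC2.7 and ICC2.9, 6.51 in HCC1 and HCC4 and 5.89 in HCC2.1 and HCC2.4. The types therefore ran in opposite directions in the 2 sexes, with an interaction of 2.53 (SE 0.39, 95% interval 1.62 to 3.44, adjusted p = 0.113). For Cxcl12 the same 4 pairs averaged 5.08, 7.04, 5.28 and 5.13, and the interaction was -1.80 (SE 0.32, adjusted p = 0.113). Cx3cl1 (1.38, adjusted p = 0.115), Cxcr4 (1.21, adjusted p = 0.113) and Ccl28 (1.06, adjusted p = 0.113) also had positive interactions that did not pass.

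With the missing direction in the model Cxcl1, Cxcl12 and Cxcr4 were called for the interaction (limma adjusted p = 0.00689, 0.0263 and 0.0482). That fit called 3 of the 54 chemokine genes and 255 of all 22180 genes. Without ICC9, which left ICC10 as the only female-labelled ICC line, the interactions of Cxcl1, Cxcl12 and Cxcr4 were 2.99, -2.155 and 1.445. The lines whose names begin with 2. are the male-labelled ICC and the female-labelled HCC lines, so the interaction cannot be told apart from that naming series. Nfkbia, an NF-kB target and inhibitor, measured 9.04, 9.94, 7.84 and 7.69 in ICC9, ICC10, ICC2.7 and ICC2.9 and 9.44, 9.12, 8.68 and 8.56 in HCC1, HCC4, HCC2.1 and HCC2.4. The macrophage-associated gene Cd68 measured 9.01, 10.04, 7.31 and 7.98 and then 10.21, 10.15, 9.39 and 9.09 in the same order. Both were lowest in ICC2.7 and ICC2.9. Cx3cl1 and Cxcr4 were lowest in the same lines, and Cxcl1 was lowest in ICC2.7. Among the 19 NF-kB pathway genes Rel was also lowest in ICC2.7 and ICC2.9 (7.02 and 6.77). Bcl3 and Nfkb2 were lowest in HCC4 (6.05 and 7.89), and Rela lay at 10.19 to 10.51 in all lines. Of the leukocyte markers, Ptprc was lowest in HCC1 (3.40) and Itgam in HCC2.4 (3.66), both under the reference. The part of Nfkbia and Cd68 in the values of Cx3cl1, Cxcr4 and Cxcl1 was not tested.

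Pathway genes around the chemokines showed no called difference between types. Of 19 measured NF-kB pathway genes limma called 0, with 1 at an unadjusted p under 0.05, the adaptor Myd88 (0.38, SE 0.13, adjusted p = 0.247), and a median difference of -0.020. Of 11 genes of interferon signalling 0 were called, with 1 at an unadjusted p under 0.05, the transcription factor Irf9 (-0.32, SE 0.12, adjusted p = 0.283), and a median of 0.058. All 30 of these genes lay above the sensory receptor reference in all 8 lines. Among 14 genes that act below chemokine receptors 0 were called and 1, the G protein subunit Gnb1 (0.18, adjusted p = 0.336), had an unadjusted p under 0.05, with a median of 0.033. The leukocyte genes Pik3cg and Dock2 of that list lay above the reference in no line. Of 9 relatives outside the symbol rule, among them Mif (11.47 to 11.93) and Pf4 (4.09 to 4.42), limma called 0, and 1, the skin chemokine Ccl27a, had an unadjusted p under 0.05 (0.37, SE 0.12, adjusted p = 0.233).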

How the data were processed

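RNA of 8 clonal lines was hybridised to Affymetrix arrays, 1 per line, without technical replicates. The deposited table holds log2 values, made by RMA with oligo per the submitters' processing notes. For the versions, annotation and genome build: not given in the sources used here. RMA in general corrects background, scales arrays by quantiles and summarises probes on the log scale, which draws low signals together, so differences below the reference are hard to read. The number of arrays limits the precision.

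Of 39993 probe sets 23521 name 1 gene, 1814 several and 14658 none here. A gene was read from its single-gene probe set with the highest mean, which gave 22180 genes. No filter on low values was applied, and all 54 chemokine genes were tested. All 54 carry the same symbol in RefSeq.

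ICC and HCC lines were compared by a two-sided limma test (version 3.58.1, R 4.3.3; lmFit, then eBayes) with no covariate and Benjamini-Hochberg adjustment over all genes, called at an adjusted p under 0.05. Residual degrees of freedom were 6, and prior ones 2.85. Differences by labelled sex had type in the model, and the interaction had both. The fit was tested on simulated data with independent normal errors for each line. That setting lacks correlated pairs of lines and the missing direction, so it gives no error rate for these data. Further computing used Python 3.11.15 with pandas 2.3.3 and numpy 2.4.6, and plots used matplotlib 3.10.9.

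The members, gene lists and tests were chosen with earlier results of these data known, and the comparison by labelled sex after these values were seen. Given by line, or by the range in each type, were genes with a call between types, genes above the sensory receptor reference in at least 1 line with a span of at least 1 log2 unit or an unadjusted p under 0.05 between types, and a fixed set, 23 genes in all. Other genes are given by ranges, and those singled out among them were chosen after their values were seen. Of the lists, NF-kB, interferon, receptor signalling and relatives are given in the report, as are leukocyte, fibroblast, hepatocyte and bile duct markers. Of 5 endothelial markers 2 (Pecam1 and Kdr) lay above the reference in all lines and 3 in none. Alternatives changed the eBayes settings, filter, normalization, probe set choice, reference level and model, or left out 1 line.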

Additional observations from a re-analysis of the deposited data

Results flagged for a closer look

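Of 46 groups of 4 lines checked, 23 genes in 2 types, 5 held a line far from the other 3. Chance marks about 1 group in 20 among groups not chosen for their values, but 13 of the 23 genes were included for a span of at least 1 log2 unit, among them Cxcl14, Ccl9, Cxcr6 and Cxcl12, so that rate does not apply here. Cxcl14 measured 7.58 in HCC1 and 5.60 to 5.89 in the other HCC lines. Ccl9 measured 6.91 in HCC1 and 5.31 to 5.58 in the other HCC lines. HCC4 held Cxcr6 at 5.08, with 3.63 to 3.82 in the other HCC lines, and Cxcl12 at 5.47, with 5.10 to 5.16 in the others. Among ICC lines, Ccl20 measured 4.96 in ICC2.9 and 5.61 to 5.69 in the other 3.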

How the results depend on the processing

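No chemokine gene was called between ICC and HCC under any alternative run except the model with sex and the interaction, which called 3 (Ccl28, Cxcl12 and Cxcl16, limma adjusted p = 0.0284, 0.03 and 0.0334) and in which the spread comes only from the 2 lines of each type and sex. That model called 1268 of all genes, against 58 without covariates, 428 with sex, 119 with sex and the missing direction, 103 among genes above the median level, 12 with the missing direction, 6 with a random block for lines of one type and sex, and 2 (without ICC9) to 109 (without HCC1) when a line was left out. The median difference of chemokine genes was -0.306 among genes above the median level, where 14 chemokine genes remained in the fit, and -0.018 among all 54. Over all genes the median was 0.002 in both fits. By labelled sex the count of chemokine genes was 2, and 1 with the random block or the missing direction, 4 with the interaction in the model and 1 to 3 when a line was left out. Over all genes the same fits called 653, 334 with the random block, 280 with the missing direction, 1264 with the interaction and 146 to 917. Interaction calls numbered 3 with the missing direction and 0 to 3 when a line was left out, the 3 being without ICC9. Over all genes the interaction fit with the missing direction called 255. Each interaction fit without a line left only 1 line for the type and sex of that line. The calls of those fits therefore cannot be read as particular to chemokine genes. Receptors above the reference numbered 10, and 5 against the 99th percentile of sensory receptor genes or 6 against the median of all genes. Ligands numbered 17, and 12 and 14. Shares of all genes above these other levels are not given here, so the lower counts cannot be read as particular to chemokine genes.

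Leaving out a line changed the sign of 7 of the 23 differences between types, none of them called. Their ranges were -0.10 to 0.14 for Ccl20, -0.50 to 0.0375 for Ccl9, -0.0567 to 0.0533 for Ccr2, -0.0317 to 0.77 for Cxcl1, -0.0033 to 0.25 for Cxcl10, -0.58 to 0.08 for Cxcl14 and -1.04 to 0.0217 for Cxcl16. The cause was not tested.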
